A study of Homo sapiens with 4 samples.

Results

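The 7 genes SNAI1, SNAI2, SNAI3, ZEB1, ZEB2, TWIST1 and TWIST2, which encode the transcription factors most often named as drivers of epithelial-mesenchymal transition (EMT), were chosen by name from 20033 protein-coding genes of GENCODE release 44. At these genes, anti-GFP ChIP-seq measured where Smad2 or Smad3 with a LAP tag, which contains GFP, was bound. The cells were MDA-MB-231, an established line from a human breast carcinoma, stably transfected with a bacterial artificial chromosome that carries the tagged Smad gene, selected with Geneticin and sorted for GFP as a population. Such chromosomes usually keep a gene with much of its own flanking sequence, and the cells' untagged Smads were not removed. Each line was left untreated or received 10 ng/mL TGFβ-1 for 2 h, which gave 4 conditions with 1 library each. No difference between conditions therefore has a replicate check, and no p-value is given.

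Peaks were read from the deposited list of each library if they overlapped a window that reached 10 kb beyond both ends of the gene. The lists held 26828 peaks (LAP-Smad2) and 62551 peaks (LAP-Smad3) after TGFβ-1, and 11266 and 3511 peaks in the libraries labelled LAP-Smad2 untreated and LAP-Smad3 untreated. The names under which the untreated lists were deposited give the opposite Smads. At SMAD2, a gene that a tagged chromosome would carry in extra copies, 14 peaks were found in the library labelled LAP-Smad3 untreated and 2 in the one labelled LAP-Smad2 untreated. At SMAD3 these libraries had 1 and 0. After TGFβ-1, the LAP-Smad2 list had 18 peaks at SMAD2 and the LAP-Smad3 list had 52 at SMAD3, as labelled. The text keeps the labels for the untreated libraries and reads no Smad-specific or TGFβ-1 effect from them. Fold enrichment is the ratio of the read pileup at the summit to the local background, as the authors' peak caller gave it. It is not on a common scale between lists, and each peak is therefore also ranked within its own list. The cell line label could not be checked by expression markers, since binding alone was measured.

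In EMT, epithelial cells lose their junctions and polarity and become motile. TGFβ is a classical inducer: its receptors phosphorylate Smad2 and Smad3, which enter the nucleus with Smad4 and act on target genes together with other factors. The SNAI zinc-finger proteins, the ZEB proteins, which carry zinc fingers and a homeodomain, and the TWIST basic helix-loop-helix proteins bind E-boxes and repress epithelial genes such as CDH1. ZEB2 was first described as a Smad-interacting protein. MDA-MB-231 is itself a mesenchymal-like line.

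Sequences are shown first for 4 of the genes, as windows of 151 bp centred on the summit, read from hg38 on the strand of the gene. Each is the window of the treated peak with the highest −log10 q at its gene. Capitals mark CAGAC, a core of the Smad-binding element, or its reverse complement.

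SNAI1, LAP-Smad2, chr20:49979143-49979293, plus strand: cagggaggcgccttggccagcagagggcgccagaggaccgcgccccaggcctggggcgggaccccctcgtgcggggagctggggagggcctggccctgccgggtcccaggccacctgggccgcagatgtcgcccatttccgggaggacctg
SNAI3, LAP-Smad3, chr16:88687998-88688148, minus strand: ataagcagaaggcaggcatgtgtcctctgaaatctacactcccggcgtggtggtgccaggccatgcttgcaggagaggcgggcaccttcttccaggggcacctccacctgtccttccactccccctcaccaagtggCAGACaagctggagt
ZEB2, LAP-Smad2, chr2:144524238-144524388, minus strand: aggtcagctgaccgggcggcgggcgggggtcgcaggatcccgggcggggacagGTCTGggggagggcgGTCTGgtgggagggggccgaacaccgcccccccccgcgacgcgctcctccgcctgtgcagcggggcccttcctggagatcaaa
TWIST2, LAP-Smad3, chr2:238890220-238890370, plus strand: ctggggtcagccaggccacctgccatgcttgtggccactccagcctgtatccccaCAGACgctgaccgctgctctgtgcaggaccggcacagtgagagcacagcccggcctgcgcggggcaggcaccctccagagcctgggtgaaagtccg

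After TGFβ-1, 4 of the 7 genes (SNAI1, ZEB1, ZEB2 and TWIST2) had a LAP-Smad2 peak, a share of 57.1% (exact binomial 95% interval 18.4% to 90.1%). The same window rule gave 55.9% of all protein-coding genes. LAP-Smad3 peaks lay at 6 of the 7 genes, SNAI2 being the exception, a share of 85.7% (42.1% to 99.6%) against 74.3% of all protein-coding genes. The 4 genes with a LAP-Smad2 peak also had a LAP-Smad3 peak, where 47.0% of all protein-coding genes had peaks of both lists. In both lists the share at the EMT genes thus had an interval that includes the background. Without TGFβ-1, 2 of the 7 genes, ZEB1 and ZEB2, had a peak in the library labelled LAP-Smad2 untreated, against a background of 22.0%. In the library labelled LAP-Smad3 untreated it was 0 of 7 genes, which by the exact interval allows a share of up to 41.0%, and the background was 9.14%. The binomial and Poisson intervals and these limits cover counting error only.

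The number of peaks at the 7 genes was also close to what list length and window length give. The 7 windows together span 686 kb, and their median of 82.5 kb is longer than the 47.5 kb of all protein-coding genes. After TGFβ-1, 7 LAP-Smad2 peaks lay there (exact Poisson 95% interval 2.81 to 14.4), where an even spread of that list over the genome would give 5.96 and its density in all protein-coding windows 7.54. For LAP-Smad3 it was 13 peaks (6.92 to 22.2), against 13.9 and 17.5. Both intervals include both values. Untreated, 3 peaks were found in the library labelled LAP-Smad2, against 2.50 by an even spread. In that labelled LAP-Smad3 there were 0, which by the exact Poisson interval allows up to 3.69, against 0.780.

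**Figure D1:**
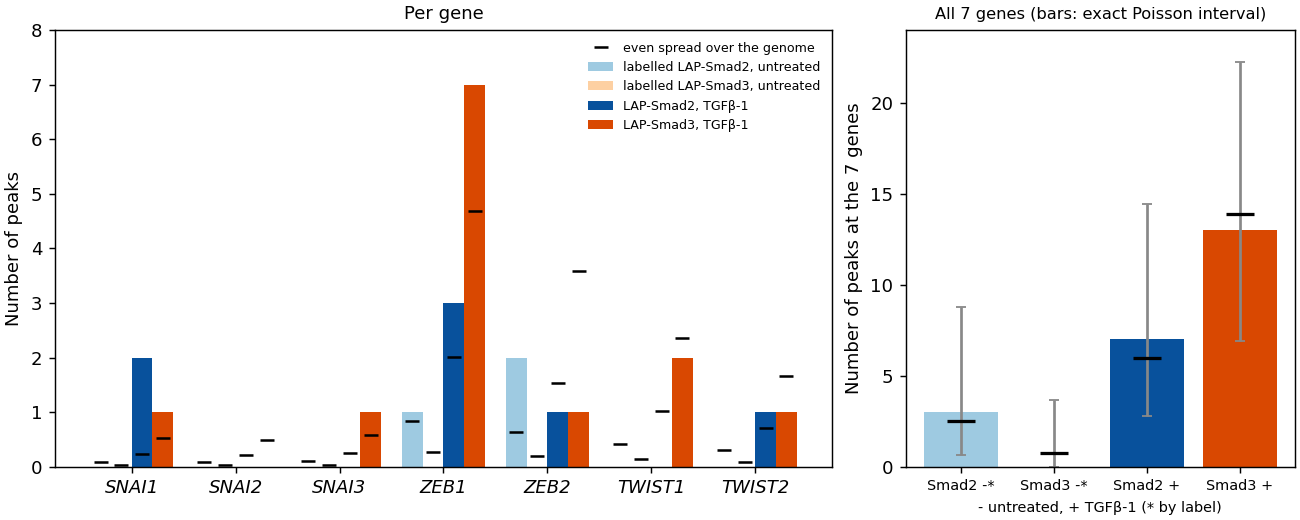
Number of peaks at each gene (left) and at all 7 genes (right, grey bars: exact Poisson 95% interval for counting error), by list. Black dashes give the number that an even spread of each list over the genome would place in the same windows. ZEB1 had the most peaks, 3 LAP-Smad2 and 7 LAP-Smad3 after TGFβ-1, and SNAI2 had none.

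SNAI1 (Snail, ENSG00000124216.4, chr20:49982980-49988886, plus strand) was the gene with the densest LAP-Smad2 peaks, 2 in a window of 25.9 kb, where an even spread would give 0.225. Of all protein-coding genes, 27.9% had as many or more. The stronger peak, chr20:49979086-49979521, had a fold enrichment of 3.48, with a percentile of 22.7 in its list. Its −log10 q of 5.01 had a percentile of 55.6, and its summit lay 3762 bp upstream of the only annotated start site. Its 151 bp window, printed above, has a GC content of 76.8% and holds GGCGCC at 2 places. The second peak, chr20:49987773-49988046, lay in intron 2, with a fold enrichment of 2.91 that had a percentile of 4.50 in its list. The single LAP-Smad3 peak at SNAI1, chr20:49988191-49988632, began 144 bp beyond it, with its summit in the untranslated part of exon 3. Its fold enrichment of 4.49 had a percentile of 37.1 in its list, and its −log10 q was 3.48. The 2 Smads thus had neighbouring intervals at the end of SNAI1 that did not overlap, with summits 581 bp apart.

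SNAI2 (Slug, ENSG00000019549.13, chr8:48917598-48921740, minus strand) had no peak in any of the 4 lists. Its window of 24.1 kb is the shortest of the 7, and an even spread would place 0.489 LAP-Smad3 and 0.210 LAP-Smad2 peaks there, so that the absence of peaks is within counting error. The nearest LAP-Smad3 summit after TGFβ-1 was 52.1 kb from a start site of SNAI2 and the nearest LAP-Smad2 summit 120 kb.

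SNAI3 (ENSG00000185669.6, chr16:88677688-88686507, minus strand), the least studied member of the SNAI family, had 1 peak, of LAP-Smad3 after TGFβ-1. This peak, chr16:88688036-88688387, had its summit 1566 bp upstream of the start site, the closest of all treated peaks to a start site of its gene. Its fold enrichment was 2.93, and its −log10 q of 1.33, the lowest of the treated peaks at the 7 genes, had a percentile of 0.0799 in the list, just inside the q-value cut-off of 0.05. The window holds CAGAC at 63 bp and the E-box CAGGTG at 31 bp downstream of the summit, measured to the middle of the motif.

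ZEB1 (ENSG00000148516.23, chr10:31318495-31529814, plus strand) had the most peaks, 3 of LAP-Smad2 and 7 of LAP-Smad3 after TGFβ-1. It is also the longest of the 7 genes, and an even spread would give 2.01 and 4.69. As many LAP-Smad3 peaks or more were found at 8.64% of protein-coding genes, and as many LAP-Smad2 peaks or more at 13.3%. All 10 treated peaks lay in introns 1 and 2 of the canonical transcript, between 42.7 and 151 kb downstream of its start site, and none lay within 3 kb of any of the 21 annotated start sites. The strongest LAP-Smad3 peak by fold enrichment, chr10:31448614-31449047, had a fold of 6.60 and a −log10 q of 6.60, with a fold percentile of 88.6. The strongest by q-value, chr10:31464160-31464381, had a fold of 5.85 and a −log10 q of 6.69. The strongest LAP-Smad2 peak, chr10:31469209-31469422, had a fold of 4.64 and a −log10 q of 6.29.

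The 2 sites at which LAP-Smad2 and LAP-Smad3 peaks overlapped at the EMT genes were both in ZEB1. At the intron 1 site, the LAP-Smad2 peak chr10:31411449-31411681 (fold 3.77, −log10 q 3.48) and the LAP-Smad3 peak chr10:31411460-31411665 (fold 4.37, −log10 q 4.40) shared 206 bp, with summits 96 bp apart. The library labelled LAP-Smad2 untreated also had a peak there, chr10:31411432-31411647 (fold 3.85, −log10 q 2.68), with its summit 12 bp from the LAP-Smad3 summit. At the intron 2 site, LAP-Smad2 chr10:31469209-31469422 and LAP-Smad3 chr10:31469243-31469716 shared 180 bp, but their summits were 247 bp apart. Over the 7 genes, 2 of 7 LAP-Smad2 peaks, or 28.6%, overlapped a LAP-Smad3 peak, against 24.5% of that whole list. For LAP-Smad3 it was 2 of 13, or 15.4%, against 10.6%. These shares were near the background, and their exact 95% intervals (3.67% to 71.0% and 1.92% to 45.4%) include it.

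**Figure D2:**
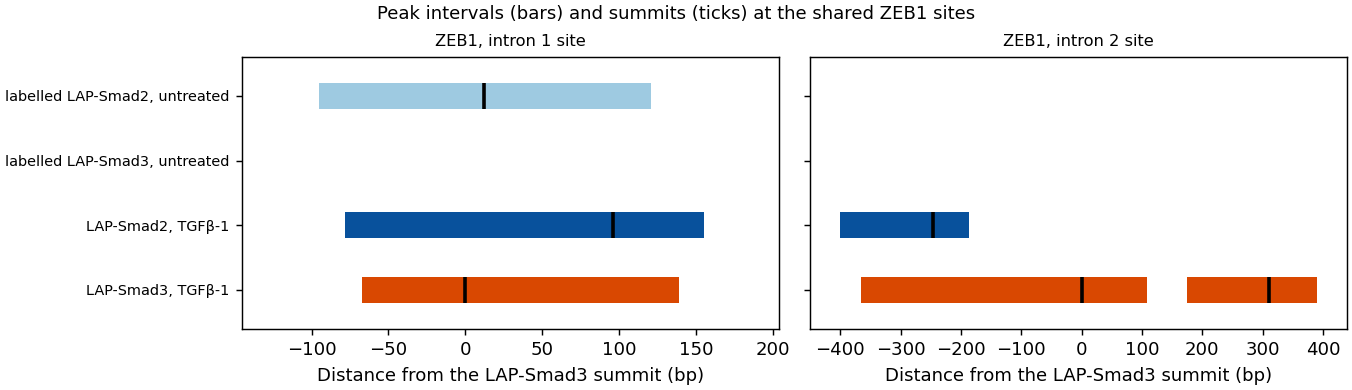
Peak intervals (bars) and summits (black ticks) in each list at the 2 ZEB1 sites with overlapping LAP-Smad2 and LAP-Smad3 peaks, in bp from the LAP-Smad3 summit. At the intron 1 site the summits of the treated lists are 96 bp apart, while at the intron 2 site they are 247 bp apart and LAP-Smad3 has a further peak beside it.

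ZEB2 (ENSG00000169554.23, chr2:144364364-144521057, minus strand) had fewer peaks after TGFβ-1 than its length would give, 1 of LAP-Smad2 against 1.53 and 1 of LAP-Smad3 against 3.58. The LAP-Smad2 peak, chr2:144524129-144524469, had the highest rank of all LAP-Smad2 peaks at the EMT genes, with a fold of 4.85, a percentile of 87.1, and a −log10 q of 6.65. Its summit lay 3256 bp upstream of the nearest start site of ZEB2, within the long noncoding RNA genes LINC01412 and LINC02993. It was also 3717 bp downstream of the nearest annotated start site of ZEB2-AS1, the antisense neighbour, and beyond the end of that gene. As the printed window shows, CAGAC or its complement occurs there at 2 places, 20 and 5 bp upstream of the summit, which are offsets of -20 and -5. The LAP-Smad3 peak, chr2:144393977-144394181 (fold 5.88, −log10 q 5.63), lay in intron 9, 126 kb from the canonical start site but 2379 bp from that of a shorter transcript. The library labelled LAP-Smad2 untreated had a peak with its summit 10 bp away, chr2:144394012-144394251 (fold 7.34), and another in intron 2, chr2:144497890-144498143 (fold 6.02). The window of the latter was extremely AT-rich, with a GC content of 3.97%.

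TWIST1 (ENSG00000122691.13, chr7:19020991-19117636, minus strand) had 2 LAP-Smad3 peaks and no LAP-Smad2 peak after TGFβ-1. The canonical transcript covers only 2.17 kb of the 96.6 kb span, which a longer transcript extends, and both peaks lay in intron 2 of the longer transcript. The nearer, chr7:19106412-19106611, had its summit 11.1 kb downstream of the canonical start site, with a fold of 4.41 and a −log10 q of 3.08. The farther, chr7:19100882-19101106, lay 16.6 kb downstream, with a fold of 4.39 and a −log10 q of 3.78. Neither peak ranked above the median fold of its list.

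TWIST2 (ENSG00000233608.5, chr2:238848032-238910534, plus strand) had 1 peak of each Smad after TGFβ-1, both in intron 1 of the canonical transcript. The LAP-Smad3 peak, chr2:238890196-238890397, had a fold of 6.07, a percentile of 82.5, and a −log10 q of 5.63, with its summit 42.2 kb from the canonical start site. The LAP-Smad2 peak, chr2:238909381-238909615, near the end of the gene, had a fold of 3.76 and a −log10 q of 3.46. The peaks were thus in different parts of the intron, and no peak of the untreated libraries lay at the gene.

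**Figure D3:**
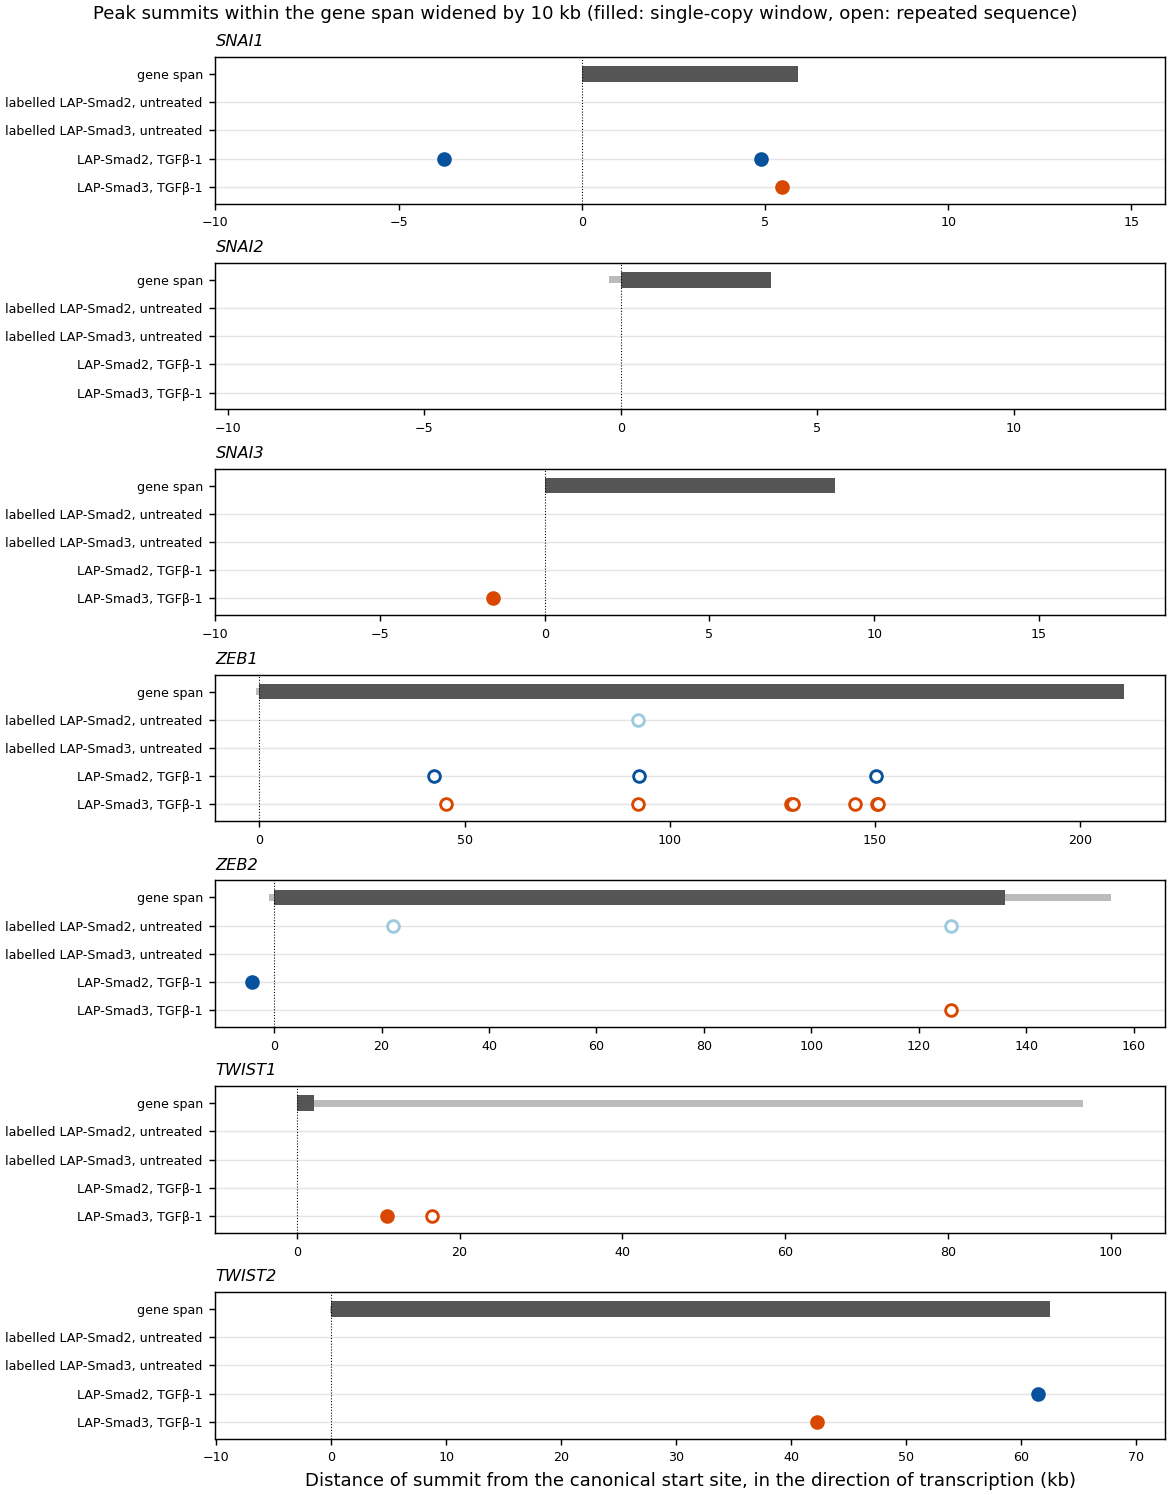
Summits of all peaks at each gene, by list, in kb from the canonical start site along the direction of transcription. Dark bars show the canonical transcript and pale bars the full gene span. Filled circles are windows in which at least 50% of the 24-mers occur once in hg38, open circles repeated sequence. The 11 circles at ZEB1 are open and the 3 at SNAI1 are filled.

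Few summits lay at promoters. No LAP-Smad2 summit was within 3 kb of any start site of the 7 genes after TGFβ-1. By the exact interval, 0 of 7 genes allows a share of up to 41.0%, where 35.1% of all protein-coding genes had such a summit. For LAP-Smad3, 2 of 7 genes, SNAI3 and ZEB2, had such a summit (28.6%, exact interval 3.67% to 71.0%), against 39.6%. With so few genes, a difference from the background was not detectable. Of the treated peaks, 5 of 7 LAP-Smad2 and 11 of 13 LAP-Smad3 summits lay in introns, which make up 75.7% of the bases of the 7 windows by the same annotation.

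The treated peaks at the EMT genes held low to high ranks in their lists by fold enrichment. The median percentile of fold enrichment within the list was 37.2 for the 7 LAP-Smad2 peaks (range 4.50 to 87.1) and 37.1 for the 13 LAP-Smad3 peaks (range 1.95 to 88.6), and none exceeded a percentile of 88.6. The −log10 q ranged from 2.82 to 6.65 in LAP-Smad2 and from 1.33 to 6.69 in LAP-Smad3 peaks, with list medians of 4.66 and 4.43. Many LAP-Smad3 values are steps that a large number of peaks share. The ZEB1 peaks chr10:31364428-31364713 and chr10:31449212-31449416 have the same fold of 5.52 and the same −log10 q of 4.72, as do 4108 peaks of the list in all. The TWIST1 peak at chr7:19106412-19106611 and the ZEB1 peak chr10:31469243-31469716 likewise share their values with each other and belong to a set of 2925. Order among such peaks cannot be read from the scores.

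**Figure D4:**
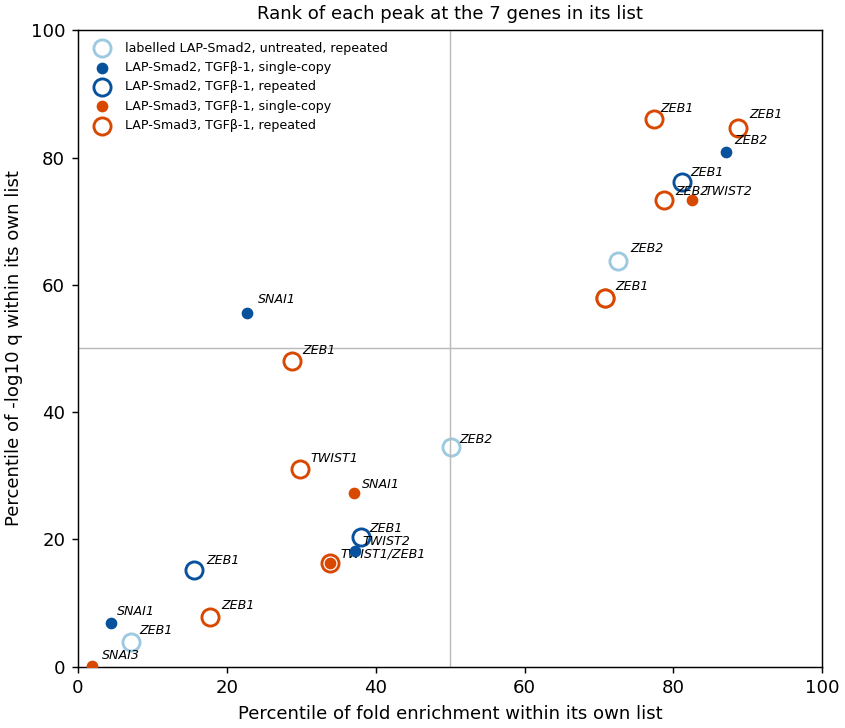
Percentile of fold enrichment (x axis) and of −log10 q (y axis) of each peak at the 7 genes within its own list. Filled circles are single-copy windows and open circles repeated sequence, and one point can stand for several peaks with equal values. Points run from SNAI3 near the origin to ZEB1 and ZEB2 at the upper right, and none lies above a fold percentile of 88.6.

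The genes differed in whether the sequence under their peaks occurs once in the genome, which decides how surely short reads can be placed. For each 151 bp window, the share of its 24-mers that occur once in hg38 was computed, and windows with at least 50% were called single-copy. At ZEB1, 0 of the 10 treated peaks lay in a single-copy window. At SNAI1, 3 of 3 did, at TWIST2 2 of 2, at SNAI3 1 of 1, and at ZEB2 and TWIST1 1 of 2 each. The 2 sites shared by LAP-Smad2 and LAP-Smad3 were thus both in repeated sequence, and the 8 single-copy peaks were each called in 1 list alone. Most peaks in the complete treated lists were unshared too, since overlap with the other Smad reached 24.5% (LAP-Smad2) and 10.6% (LAP-Smad3). The overlap among single-copy windows of the complete lists was not computed. Whether sharing goes with repeated sequence was therefore not tested. The 24-mers of the LAP-Smad3 window at the shared ZEB1 intron 1 site had a median of 2671 copies, and those of the top ZEB1 window by q-value 4063. At the ZEB2 intron 9 site they had a median of 5888 copies, and at the farther TWIST1 peak 8121. In the whole lists, 47.4% of LAP-Smad2 and 35.9% of LAP-Smad3 windows after TGFβ-1 were single-copy, beside 4 of 7 (57.1%) and 4 of 13 (30.8%) at the EMT genes. In the library labelled LAP-Smad2 untreated only 8.65% were, and 0 of 3 at the EMT genes. The part of repeated sequence in these peak calls was not tested.

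Short motifs were looked for in the 151 bp windows, in either orientation. CAGAC was found in 4 of 7 LAP-Smad2 windows, where 28.3% of the list held it, and in 7 of 13 LAP-Smad3 windows (53.8%, exact interval 25.1% to 80.8%), against 28.3%. E-boxes (CANNTG) were found in 3 of 7 LAP-Smad2 windows, against 43.5%, and in 10 of 13 LAP-Smad3 windows (76.9%, 46.2% to 95.0%), against 48.2%. CAGGTG, the form of the E-box bound by SNAI and ZEB proteins and counted within CANNTG too, was found in 1 of 7 LAP-Smad2 windows, against 16.5%, and in 6 of 13 LAP-Smad3 windows (46.2%, 19.2% to 74.9%), against 22.5%. The intervals include the shares of the lists for each of these motifs. The LAP-Smad3 windows with CAGGTG include some of repeated sequence in ZEB1. An example is that of chr10:31464160-31464381, whose 24-mers have a median of 4063 copies. Windows of repeated sequence were not counted apart for the motifs. GGCGCC was found in 1 of 7 and 2 of 13 windows, against 23.3% and 22.0%. The palindrome GTCTAGAC and the AP-1 sequence TGANTCA were in none of the windows, and in 0.0410% and 0.936% of the LAP-Smad2 list and 0.0368% and 1.92% of the LAP-Smad3 list.

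Other genes of the EMT programme were counted in the same way. Of 16 other EMT regulators, 12 (75%) had a LAP-Smad2 and 14 (87.5%) a LAP-Smad3 peak after TGFβ-1, and 12 had both, where all protein-coding genes gave 55.9%, 74.3% and 47.0%. The LAP-Smad3 list, the longer one, had more peaks than the LAP-Smad2 list at 8 of the 16 genes and fewer at 2. HMGA2, a chromatin protein known to act with Smads at SNAI1, had a shared site 20.7 kb downstream of its nearest start site. The LAP-Smad2 fold there was 4.75 (percentile 84.4 in its list) and the LAP-Smad3 fold 4.70 (percentile 42.6 in its list). TCF3, which encodes the E-box factor E2A, had 9 LAP-Smad3 and 0 LAP-Smad2 peaks. FOXC2 and KLF8 had none in either treated list. Of the 8 corepressor genes, 6 (75%) had a LAP-Smad2 and 8 (100%) a LAP-Smad3 peak, against the same 55.9% and 74.3%, and 6 had more LAP-Smad3 peaks. CTBP2, whose product binds ZEB proteins, had 1 LAP-Smad2 and 10 LAP-Smad3 peaks.

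Of 20 epithelial genes, 12 (60%) had a LAP-Smad2 and 14 (70%) a LAP-Smad3 peak, against 55.9% and 74.3% of all protein-coding genes. At 7 of them LAP-Smad3 had more peaks and at 7 LAP-Smad2 had more. Such tallies, here and for the other gene lists, were not made over all protein-coding genes, and the LAP-Smad3 list is the longer one. CDH1, which encodes E-cadherin and is repressed by SNAI and ZEB proteins, had no peak in any of the 4 lists over a window of 118 kb. The treated lists averaged 0.869 LAP-Smad2 and 2.03 LAP-Smad3 peaks per 100 kb of the genome. Whether the absence at CDH1 differs from that density was not tested. OVOL1, which encodes a repressor of ZEB1, had 7 LAP-Smad3 and 0 LAP-Smad2 peaks, with summits within 1398 bp of its start sites. The opposite order was seen at OCLN, which encodes the tight junction protein occludin, with 5 LAP-Smad2 and 3 LAP-Smad3 peaks, and at DSP, which encodes desmoplakin, with 4 and 1. CLDN1 and CLDN3, which encode claudins, had 2 LAP-Smad2 peaks each and no LAP-Smad3 peak. The other claudin genes of the list had peaks of both, CLDN4 with 4 LAP-Smad2 and 8 LAP-Smad3 peaks and CLDN7 with 3 and 2. The LAP-Smad3 peaks with the highest fold among all these lists were also at epithelial genes, 1 at DSP with a fold of 13.7 and a −log10 q of 23.04, and 1 at OCLN with a fold of 11.2 and a −log10 q of 21.2. Of 15 mesenchymal genes, 6 (40%) had a LAP-Smad2 and 13 (86.7%) a LAP-Smad3 peak, against the same 55.9% and 74.3%. LAP-Smad3 had more peaks at 12 of them and LAP-Smad2 at 1. TAGLN, for example, had 1 LAP-Smad2 and 8 LAP-Smad3 peaks. CDH2, which encodes N-cadherin, had a shared site 2.2 kb from a start site. The LAP-Smad2 fold there was 4.51 (percentile 77.0 in its list) and the LAP-Smad3 fold 6.28 (percentile 86.1 in its list). VIM, which encodes vimentin, had 2 peaks of each Smad that did not overlap. The strongest of them, a LAP-Smad3 peak with a fold of 7.84 and a −log10 q of 9.58, lay 6761 bp downstream of the nearest start site. Whether the shares of any of these lists differ from the backgrounds beyond counting error was not tested. Windows differ in length between the lists, and no list was tested against another.

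The miR-200 family represses ZEB1 and ZEB2 in turn. Its 3′ arms are printed here from RefSeq (GRCh38.p14) with the seed, bases 2 to 8, in capitals, because the seed sorts them into 2 groups.

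miR-200b-3p: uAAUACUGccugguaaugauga
miR-200c-3p: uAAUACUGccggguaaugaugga
miR-429: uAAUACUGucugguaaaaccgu
miR-200a-3p: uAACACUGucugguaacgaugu
miR-141-3p: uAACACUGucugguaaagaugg

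The genes of each seed group lie on both chromosomes. MIR200C and MIR141, neighbours on chromosome 12, had 5 LAP-Smad3 peaks after TGFβ-1 in their overlapping windows, the nearest with summits at -815 and -1566 bp from the start of MIR200C and folds of 4.97 each. MIR200B, MIR200A and MIR429 on chromosome 1 had none, nor had MIR205. No LAP-Smad2 peak lay at any of the 6 microRNA genes. Their windows are short, with a median of 20.1 kb. Over the genome the lists hold 0.869 LAP-Smad2 and 2.03 LAP-Smad3 peaks per 100 kb. Whether the counts at the microRNA genes differ from that density was not tested. Of the antisense neighbours, ZEB2-AS1 had 1 LAP-Smad2 peak, the one upstream of ZEB2 described above, ZEB1-AS1 had 1 of each Smad beyond the ZEB1 window, and SNAI3-AS1 had 2 of LAP-Smad3, one of them the SNAI3 peak.

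**Figure D5:**
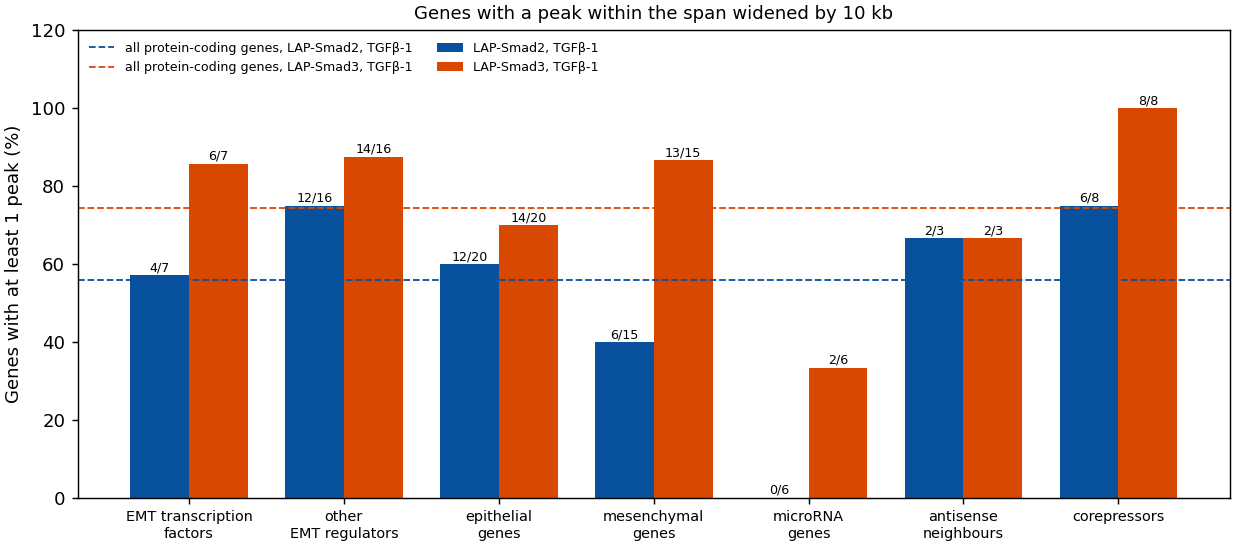
Share of genes with at least 1 peak of LAP-Smad2 (blue) and LAP-Smad3 (orange) after TGFβ-1 within the span widened by 10 kb, by gene list, with the number of genes above each bar. Dashed lines give the shares among all protein-coding genes, 55.9% and 74.3%. The EMT transcription factors sit at 4 of 7 and 6 of 7.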

How the data were processed

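The series holds 4 libraries from MDA-MB-231 lines with LAP-tagged Smad2 or Smad3, grouped by their titles. Alignment of the single-end reads by the authors used Bowtie2 and hg38, reads were lengthened to 200 bp, and MACS2 called the peaks with a q-value cut-off of 0.05. Versions and the control library are not given in the sources used here, and the submitters' processing notes also name bedtools. The deposited lists give a fold enrichment (a ratio), the p-value and q-value as −log10, and the summit offset. The study's methods set a minimum of clean reads and of non-redundant reads for sequencing. The lists hold no read totals, so the depth each library reached is not known here, and the number of peaks called can depend on it.

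Gene spans came from GENCODE release 44 and sequence from hg38, the build of the lists. Using Python 3.11.15, numpy 2.4.6, pandas 2.3.3, scipy 1.17.1, numba 0.67.0 and matplotlib 3.10.9, peaks overlapping each span widened by 10 kb were counted, overlap meaning at least 1 bp. Functions were checked on simulated data with known answers. The 7 genes and all lists were chosen with earlier results of these data known. Every gene of the family was named, and from the other lists examples chosen after their values were seen. Windows to print were those of the treated peak with the highest −log10 q at each gene and of peaks shared by the treated lists. Some of these sequences are not reported here. Repeated-sequence windows and canonical transcripts were added as alternatives after seeing the data.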

Additional observations from a re-analysis of the deposited data

How the results depend on the processing

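Of 66 recomputed values, 44 stayed close to the reported value and 22 moved further, counts by over 1.5 times. Widening the spans by 100 kb gave, after TGFβ-1, 18 peaks of LAP-Smad2 and 54 of LAP-Smad3. For the libraries labelled LAP-Smad2 and LAP-Smad3 untreated it gave 5 peaks at 4 genes and 3 peaks at 2 genes. Even-spread values for the wider spans are given below by gene, and their total was not computed. With every list reduced to its 3511 best peaks by q-value, 0 peaks at 0 genes were left in each list that had any, treated or not. An even spread of 3511 peaks would place only 0.780 in the windows of the EMT genes, so that 0 is within counting error. Without windows of repeated sequence, an alternative chosen after seeing the data, 4 treated peaks of each Smad were left, and 0 peaks at 0 genes in the library labelled LAP-Smad2 untreated. Shared peaks fell from 2 to 1 when 50% of both intervals had to overlap, and to 1 when summits had to lie no more than 100 bp apart. The 2 LAP-Smad3 summits near a start site became 0 within 1 kb and 1 with the canonical start site alone. By −log10 q, the median percentile was 20.3 for LAP-Smad2 and 48.1 for LAP-Smad3. With 1 library per condition and unknown depth, differences between lists have no error beyond counting. No paired analysis was possible because each condition has 1 library.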

Other observations

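Within 100 kb of the gene spans, the neighbourhoods of the EMT genes differed. An even spread over the genome is the only reference here. How many of all protein-coding genes have as many peaks within 100 kb was not computed, and these wider spans hold other genes too. Around ZEB1 and ZEB2, the wider span added no peak of either Smad after TGFβ-1, where an even spread over the whole widened span would give 8.33 and 7.22 LAP-Smad3 peaks and 7 and 1 were found. Around SNAI1, it added 11 LAP-Smad2 and 16 LAP-Smad3 peaks, which made 13 and 17 in all, against 1.79 and 4.17 by an even spread. Of the 17 LAP-Smad3 peaks there, 8 were nearest to a start site of SLC9A8, 4 to SNAI1 and 3 to SPATA2, and of the 13 LAP-Smad2 peaks 5 were nearest to SNAI1 and 5 to SPATA2. Around SNAI3, it added 0 LAP-Smad2 and 20 LAP-Smad3 peaks, which made 0 and 21 against 1.81 LAP-Smad2 and 4.23 LAP-Smad3 by an even spread. Of the 21 LAP-Smad3 peaks, 9 were nearest to PIEZO1, which encodes a mechanically gated ion channel, and 4 to ZC3H18.

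A LAP-Smad3 peak after TGFβ-1 at chr2:238781889-238782111 had a fold of 8.33, a percentile of 98.1 in its list, and a −log10 q of 10.7. TWIST2 was the protein-coding gene with the nearest start site, at 66065 bp. The fold percentile of this peak is above that of each of the 13 LAP-Smad3 peaks within 10 kb of the 7 genes. The 1 LAP-Smad3 peak within 100 kb of SNAI2, chr8:48869230-48869492, had a fold of 5.52.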
